A study of Mus musculus with 43 samples.

Results

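The genes followed here are interferon-stimulated genes, whose transcripts rise when a cell senses interferon. The list was set by gene name and held 40 genes, and earlier results of these data were known when it was chosen. Of these, 39 were found among the 21938 genes of the deposited count table, and all 39 were among the 14836 genes that passed the low-count filter. Mx2 was not analysed here. The table came from RNA sequencing of the inferior lobe of the lung in 43 mice. The labels set out 3 groups: CTRL vehicle (called control here, n = 10), BLEO-IPF given the vehicle of nintedanib (bleomycin vehicle, n = 16) and BLEO-IPF given nintedanib (n = 17). Bleomycin is a DNA-damaging drug that causes lung injury and scarring in rodents, and nintedanib is a kinase inhibitor prescribed for idiopathic pulmonary fibrosis (IPF). The study asked what nintedanib did in such lungs. No dose, route, day, strain, sex or age is in the labels, and the vehicle of the control mice is not named, so that in every comparison with control a vehicle effect and a bleomycin effect cannot be told apart. Each library was taken as 1 mouse, as nothing in the labels says more, and p-values therefore measure the spread between these samples.

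Interferons bind receptors that signal through JAK kinases to STAT proteins. Type I and type III interferons act mainly through a complex with STAT2 and IRF9 that binds the interferon-stimulated response element (ISRE), whereas interferon gamma acts mainly through the gamma-activated site (GAS). The products include sensors of viral nucleic acid, enzymes that block translation or degrade RNA, the ubiquitin-like protein ISG15, and the guanylate-binding proteins (GBP) and immunity-related GTPases (IRG), which act on vacuoles that hold microbes and are induced strongly by interferon gamma. In the lung these genes are best known from viral infection, and macrophages, epithelium and endothelium can all express them.

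The promoters of 7 members are printed first, picked among the genes with large changes or with the relations between mice described later. Irf7 is also such a gene, but its promoter entry held no ISRE or GAS letters and it is not printed. Where a gene had more than 1 promoter, the one with the most matches in the window is shown. That every window holds a match is therefore no result. Each window is the 110 bases just before the transcription start, from RefSeq (GRCm38.p6), written 5′ to 3′ on the gene's strand. Capitals mark ISRE letters, which are TTTC, any 2 bases and TTTC again, or on the other strand GAAA, any 2 bases and GAAA, and GAS letters, TTCNNNGAA, which read the same on both strands. Matches that overlap run together.
Isg15 (chr4:156200819-156200928, minus strand): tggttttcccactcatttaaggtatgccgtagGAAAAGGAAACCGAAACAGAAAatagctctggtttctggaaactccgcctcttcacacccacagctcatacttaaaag
Ifit1 (chr19:34640779-34640888, plus strand): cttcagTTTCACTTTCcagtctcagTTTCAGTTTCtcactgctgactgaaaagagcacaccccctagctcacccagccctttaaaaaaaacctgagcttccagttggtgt
Oas1a (chr5:120907526-120907635, minus strand): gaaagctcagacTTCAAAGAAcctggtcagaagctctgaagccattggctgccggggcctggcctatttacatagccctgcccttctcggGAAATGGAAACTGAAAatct
Oas3 (chr5:120777660-120777769, minus strand): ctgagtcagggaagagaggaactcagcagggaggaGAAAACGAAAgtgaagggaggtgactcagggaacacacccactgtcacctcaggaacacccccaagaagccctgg
Gbp2 (chr3:142620553-142620662, plus strand): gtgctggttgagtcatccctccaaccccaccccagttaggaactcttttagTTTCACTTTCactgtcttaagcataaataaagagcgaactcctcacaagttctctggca
Gbp7 (chr3:142530226-142530335, plus strand): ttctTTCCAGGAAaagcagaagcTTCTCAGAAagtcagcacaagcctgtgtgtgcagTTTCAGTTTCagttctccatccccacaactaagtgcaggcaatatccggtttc
Irf1 (chr11:53769904-53770013, plus strand): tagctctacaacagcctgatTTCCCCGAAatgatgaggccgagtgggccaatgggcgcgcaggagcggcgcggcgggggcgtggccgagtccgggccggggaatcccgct
Isg15 held 3 overlapping ISRE matches in 1 run, and Ifit1 held 2 separate ones. In Oas1a 2 overlapping ISRE matches began 20 and 14 bases before the start. Gbp7 carried 1 ISRE match and 2 GAS matches, and Irf1 carried 1 GAS match and no ISRE match in this window.

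Of the 39 members, 30 had an entry in the RefSeq promoter table, with 34 promoters of 300 bases (250 before and 50 after the start). ISRE letters were found in 19 of these 34 promoters (55.9%) and in 3.44% of the 32851 promoters of the whole table. GAS letters were found in 10 of the 34 (29.4%) and in 8.30% of all promoters. All 6 GBP and IRG members with an entry held ISRE letters and 3 held GAS letters, beside 13 and 7 of the other 24 members. A match is a description of letters, and members were listed because they respond to interferon, so that the excess of ISRE letters is no finding about these lungs. ISRE letters were present in 7 of the 10 members with an entry that were higher in bleomycin vehicle lungs, in 3 of the 6 that were lower and in 9 of the 14 that were not called.

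**Figure D1:**
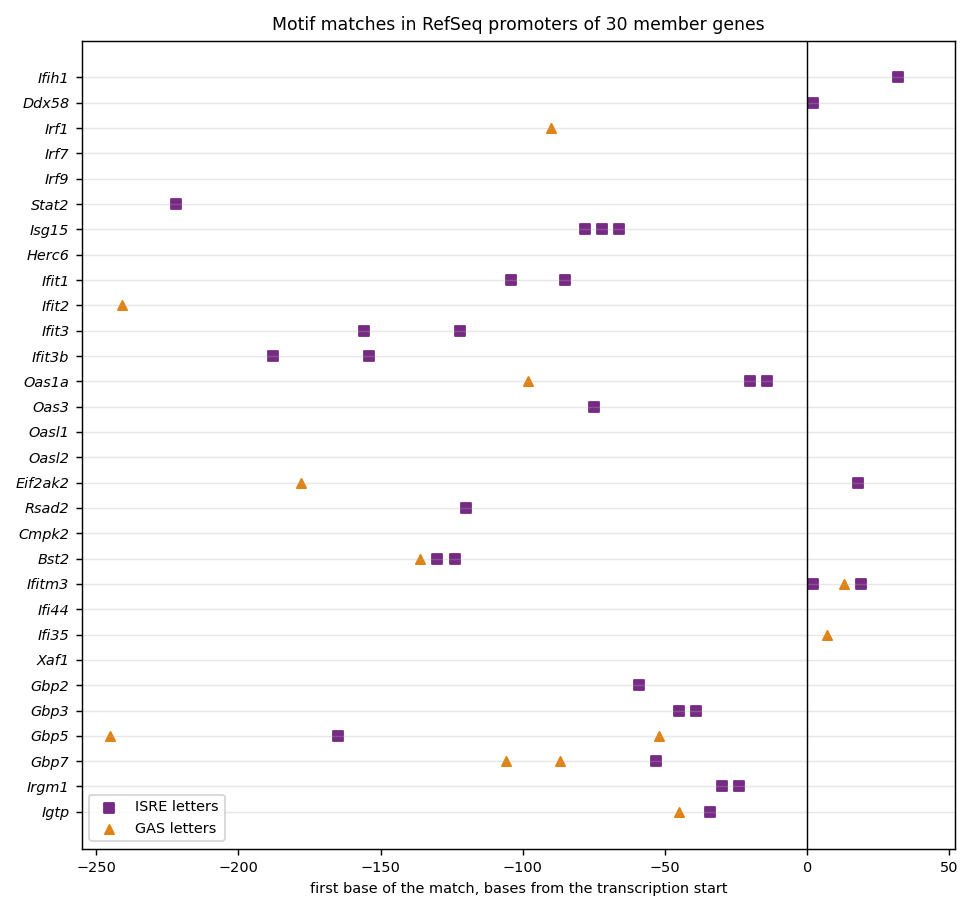
Positions of ISRE letters (squares) and GAS letters (triangles) in the RefSeq promoters of 30 members, with the first base of each match on the horizontal axis in bases from the transcription start (vertical line). Genes are ordered by role from sensors at the top to GBP and IRG genes at the bottom; 19 genes hold ISRE letters and 10 hold GAS letters.

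Library totals ran from 13138281 to 19111457 counts, with overlapping ranges in the 3 groups, and no pair of libraries of 1 group agreed within sampling noise (smallest chi-square per degree of freedom 5.22 over 301 pairs). Lung markers were abundant: the summed level of 8 epithelial and endothelial genes was 22349 CPM (counts scaled to the library total, with TMM factors) or more in every library. Of these 8, Hopx, Scgb1a1, Pecam1 and Cdh5 were lower and none was higher in bleomycin vehicle than in control lungs. Fat transcripts differed between groups, since Adipoq, the adipocyte hormone adiponectin, reached 1 CPM in 8 of 10 control, 0 of 16 bleomycin vehicle and 5 of 17 nintedanib libraries. Library numbers fell into 3 series of 33, 4 and 6 libraries that the labels do not explain; the series of 33 and of 6 held all 3 groups, and that of 4 held no control library.

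Members were measured at very different levels. Per kilobase of merged exon, the control median was highest for Ifitm3, which blocks fusion of viruses with the cell, at 298 CPM per kilobase, followed by Bst2, which tethers budding virus, at 92.8. At the low end stood the antiviral enzyme Oas3 at 0.532 and the GTPase Mx1 at 1.04 CPM per kilobase. Every other level below is in CPM, without division by length, and is compared only within a gene.

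In bleomycin vehicle lungs 15 of the 39 members were higher and 6 were lower than in control lungs (edgeR's quasi-likelihood test, adjusted p under 0.05 over 14836 genes). Over all tested genes 57.9% were called in this comparison, 29.5% higher and 28.3% lower, and the members' share of 53.8% was close to that background. The median log2 fold change was 0.13 over the members and -0.01 over all tested genes. By role, all 6 OAS and PKR members were higher, and of the 7 GBP and IRG members 0 were higher and 3 lower; other roles were split, with 2 of 4 IFIT members higher and 1 of 4 transcription factors in each direction. Roles were not tested against each other. In whole lung, more or fewer cells of a type cannot be told apart from more or less RNA per cell. The ranges of the 2 groups overlapped for all 39 members, whereas they did not overlap for 5.54% of all tested genes.

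**Figure D2:**
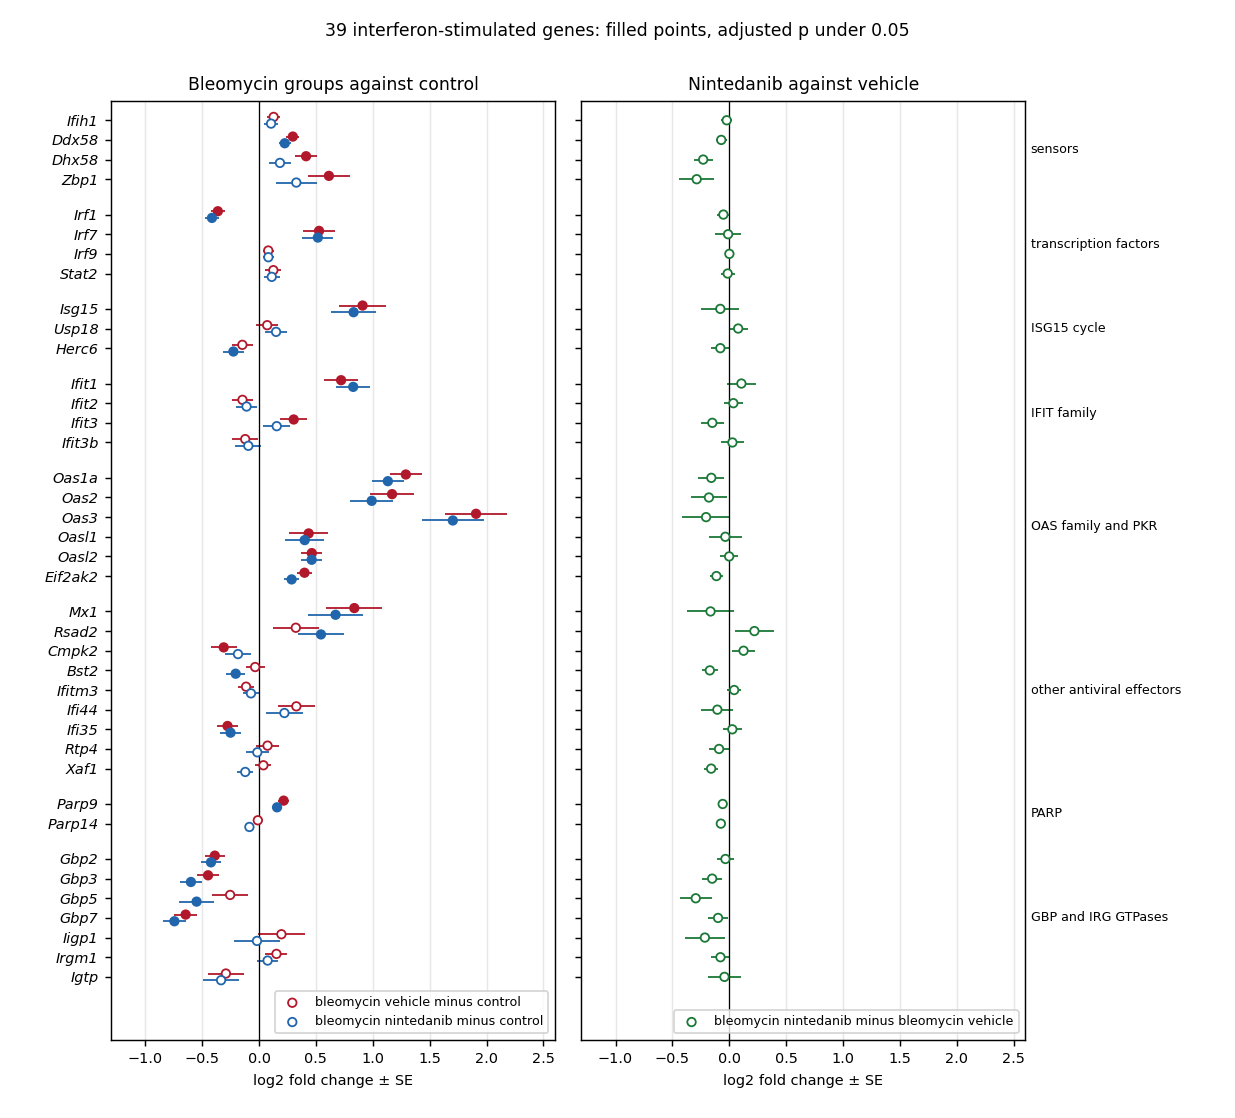
Log2 fold change (horizontal axis) with its standard error (bar) for the 39 members, grouped by role; the left panel sets bleomycin vehicle (red) and bleomycin nintedanib (blue) against control and the right panel sets nintedanib against vehicle in bleomycin mice. Filled points have an adjusted p under 0.05: all 6 OAS and PKR genes are filled and to the right of 0 on the left, and no point is filled on the right.

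The OAS enzymes make short adenylate chains that switch on RNase L, which degrades RNA, and PKR (Eif2ak2) is a kinase that halts translation when it binds double-stranded RNA. Oas3 (chromosome 5, 120753098 to 120777661) had the largest rise. Its level was 2.09, 3.76 and 5.60 CPM (lowest, median, highest) in control mice, 3.63, 13.8 and 20.5 in bleomycin vehicle mice and 4.92, 9.30 and 26.6 in nintedanib mice. In 15 of 16 bleomycin vehicle mice Oas3 lay above every control mouse. The log2 fold change of bleomycin vehicle against control was 1.91 ± 0.27 (SE, edgeR's adjusted p = 1.6e-07), a 3.75-fold higher level.

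Oas1a rose by 1.29 ± 0.14 (edgeR's adjusted p = 4.8e-10). Its levels were 4.54, 6.73 and 8.82 CPM in control mice, 8.77, 16.9 and 22.8 in bleomycin vehicle mice and 9.19, 14.2 and 22.7 in nintedanib mice, so that 1 bleomycin vehicle mouse overlapped the control range. Oas1a and its neighbour Oas1g share 47.6% of the 75-base windows of Oas1a transcripts, and reads of the pair may have been divided or lost, which makes both values uncertain. Oas2, with no shared window, ran at 5.18, 7.65 and 9.998 CPM in control, 9.34, 17.4 and 26.6 in bleomycin vehicle and 6.71, 13.6 and 32.2 in nintedanib mice. Oas2 rose by 1.17 ± 0.19 (edgeR's adjusted p = 1.6e-06), and 15 of 16 bleomycin vehicle mice were above all control mice. The remaining members of the group changed less, with log2 fold changes of 0.46 for Oasl2, 0.44 for Oasl1 and 0.40 for Eif2ak2. The call of Oasl1 was lost without any 1 of 7 control mice (2, 3, 4, 5, 6, 7 and 9) or of bleomycin vehicle mice 3 and 4. Summed over the 6 genes, the level was 81.6 to 107 CPM in control, 108 to 186 CPM in bleomycin vehicle and 102 to 204 CPM in nintedanib mice. The control and bleomycin vehicle sums just did not overlap, whereas the control and nintedanib sums did. Sums over all 39 members overlapped too, at 1455 to 1989 CPM in control and 1461 to 1992 CPM in bleomycin vehicle mice. How often sums of other genes fail to overlap was not tested.

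ISG15 is a small protein that is coupled to other proteins much as ubiquitin is. Isg15 was present at 2.79, 5.73 and 9.47 CPM in control mice, 7.47, 10.9 and 15.8 in bleomycin vehicle mice and 5.57, 9.64 and 23.4 in nintedanib mice. All 16 bleomycin vehicle mice were above the control median and 11 were above the highest control mouse. The log2 fold change was 0.91 ± 0.20 (edgeR's adjusted p = 0.0002). The other genes of the ISG15 cycle were not called, with 0.07 ± 0.10 for Usp18, which removes ISG15 and dampens receptor signalling, and -0.15 ± 0.09 for Herc6, which attaches ISG15 in mice.

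**Figure D3:**
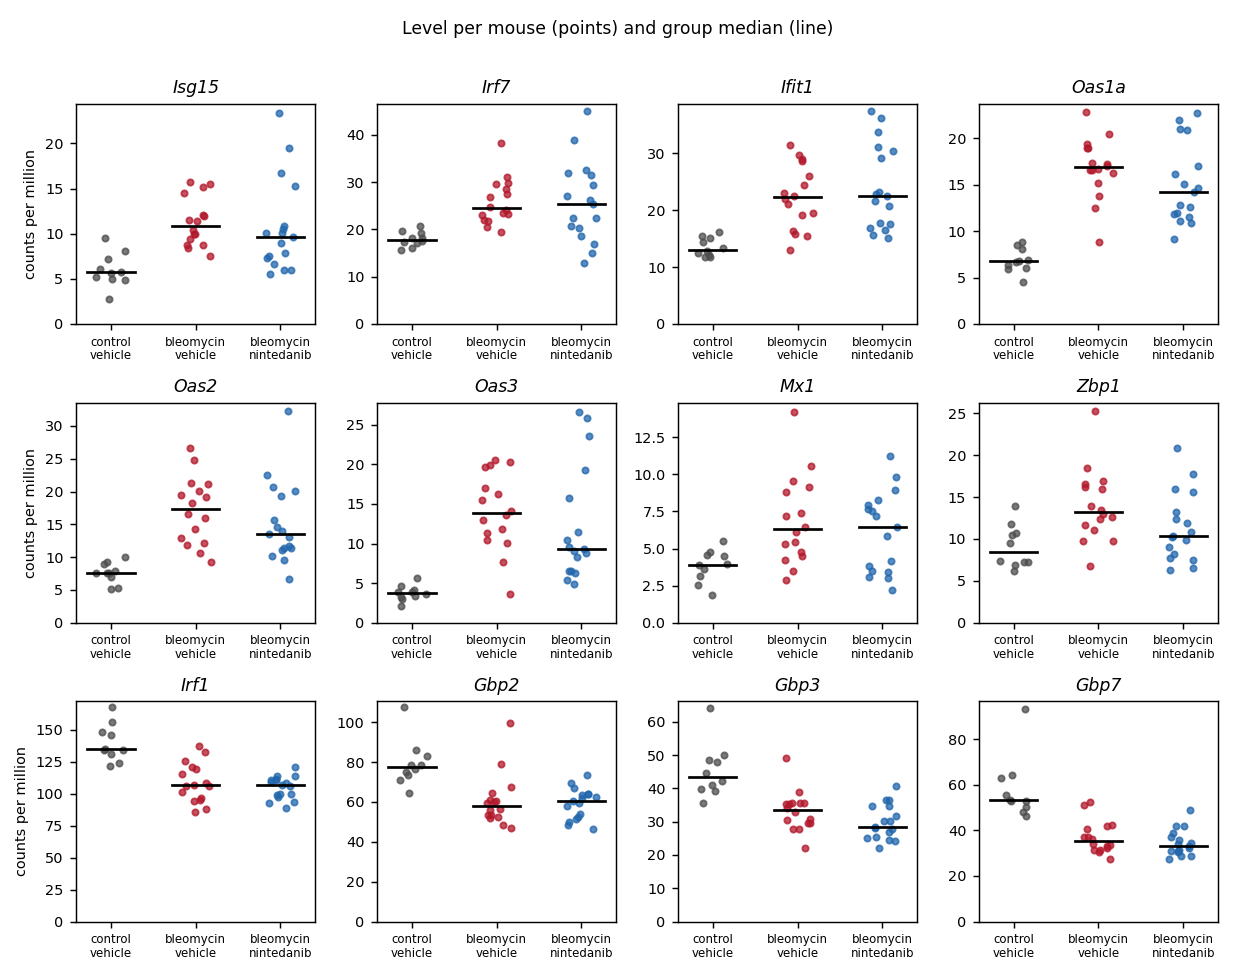
Levels of 12 members in CPM (vertical axis, from 0) in control vehicle (grey, n = 10), bleomycin vehicle (red, n = 16) and bleomycin nintedanib mice (blue, n = 17); each point is a mouse and each line a group median. Points of the bleomycin groups lie mostly above the control points for Isg15, Irf7, Ifit1 and the OAS genes and mostly below them for Irf1, Gbp2, Gbp3 and Gbp7.

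IFIT proteins bind viral RNA and hinder its translation. Ifit1 stood at 11.7, 13.1 and 16.2 CPM in control mice, 12.9, 22.2 and 31.3 in bleomycin vehicle mice and 15.2, 22.4 and 37.4 in nintedanib mice. It rose by 0.72 ± 0.15 (edgeR's adjusted p = 7.2e-05), with 13 of 16 bleomycin vehicle mice above the control range. Ifit3 rose by 0.30 ± 0.12, a call that was lost without any 1 of control mice 1, 4, 8, 9 and 10, while Ifit2 and Ifit3b were not called, at -0.15 ± 0.09 and -0.12 ± 0.11. Ifit3 and Ifit3b share 41.1% and 35.7% of their 75-base windows with each other, so their separate values are uncertain.

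Among the sensors, Zbp1, which binds Z-form nucleic acid and can trigger cell death, had levels of 6.17, 8.43 and 13.98 CPM in control mice, 6.72, 13.2 and 25.3 in bleomycin vehicle mice and 6.33, 10.4 and 20.9 in nintedanib mice. It rose by 0.61 ± 0.18 (edgeR's adjusted p = 0.0039) with wide overlap, since 6 of 16 bleomycin vehicle mice exceeded the control range. The RNA sensors Dhx58 (LGP2) and Ddx58 (RIG-I) rose by 0.41 ± 0.10 and 0.30 ± 0.06. Ifih1 (MDA5) was not called at 0.13 ± 0.06.

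The transcription factors moved in different directions. Irf7, the main amplifier of type I interferon production, ran at 15.6, 17.8 and 20.8 CPM in control mice, 19.5, 24.4 and 38.2 in bleomycin vehicle mice and 12.9, 25.3 and 44.9 in nintedanib mice. It rose by 0.53 ± 0.14 (edgeR's adjusted p = 0.0012), and 14 of 16 bleomycin vehicle mice were above all controls. Irf1, which answers strongly to interferon gamma, ran at 122, 135 and 168 CPM in control, 85.4, 107 and 137 in bleomycin vehicle and 88.6, 107 and 121 in nintedanib mice. Irf1 fell by 0.36 ± 0.06 on the log2 scale (edgeR's adjusted p = 6.4e-06), with 13 of 16 bleomycin vehicle mice below every control mouse. Irf9 and Stat2, which encode parts of the ISRE-binding complex, were not called, at 0.08 ± 0.05 and 0.13 ± 0.07.

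Of the 9 other antiviral effectors measured, 1 rose and 2 fell. Mx1, a GTPase that blocks influenza virus, had 1.90, 3.92 and 5.48 CPM in control mice, 2.91, 6.29 and 14.2 in bleomycin vehicle mice and 2.18, 6.48 and 11.2 in nintedanib mice, a rise of 0.84 ± 0.25 (edgeR's adjusted p = 0.0035). The bleomycin vehicle and control ranges of Mx1 overlapped in 7 of 16 mice. Cmpk2, a mitochondrial nucleotide kinase, fell from a control median of 30.9 CPM (25.4 to 34.9) to 24.6 CPM (15.6 to 34.3), with 24.1 CPM (17.5 to 36.9) under nintedanib, by 0.31 ± 0.11 on the log2 scale (edgeR's adjusted p = 0.018). Ifi35 fell from a median of 35.1 CPM (27.7 to 38.7) to 27.7 CPM (21.5 to 38.7), with 26.9 CPM (22.5 to 45.9) under nintedanib, by 0.28 ± 0.10 (edgeR's adjusted p = 0.012). Rsad2 (viperin), Bst2, Ifitm3, Ifi44, Rtp4 and Xaf1 were not called, with log2 fold changes from -0.11 for Ifitm3 to 0.33 for Ifi44. Parp9, an ADP-ribosyltransferase family member, rose by 0.22 ± 0.05, and Parp14 stayed uncalled at -0.01 ± 0.04.

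In the GBP and IRG group 3 of 7 members fell. Gbp7 (chromosome 3, 142530342 to 142550149) stood at 46.2, 53.2 and 93.3 CPM in control mice, 27.4, 35.2 and 52.3 in bleomycin vehicle mice and 27.4, 33.3 and 49.1 in nintedanib mice. It fell by 0.65 ± 0.10 on the log2 scale (edgeR's adjusted p = 8e-07), all 16 bleomycin vehicle mice were below the control median, and 14 were below the lowest control. Gbp3 ran at 35.6, 43.5 and 64.0 CPM in control, 22.04, 33.5 and 49.1 in bleomycin vehicle and 22.2, 28.3 and 40.6 in nintedanib mice, a fall of 0.45 ± 0.10 (edgeR's adjusted p = 0.00013).

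Gbp2 ran at 64.7, 77.4 and 107 CPM in control, 47.1, 58.0 and 99.6 in bleomycin vehicle and 46.3, 60.6 and 73.4 in nintedanib mice. It fell by 0.39 ± 0.09 (edgeR's adjusted p = 0.00029), with 13 of 16 bleomycin vehicle mice below all controls. Of the uncalled members, Gbp5 and Igtp had negative values, -0.25 ± 0.16 and -0.29 ± 0.16, and Iigp1 and Irgm1 had positive ones, 0.20 ± 0.20 and 0.15 ± 0.10. Gbp7, of whose windows 11.3% are shared with another gene model, and Igtp, with 7.80% shared, are the members of this group most open to divided reads.

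Markers of immune cells moved in this comparison as well. Of 11 T and NK cell genes 7 were lower and 0 higher in bleomycin vehicle than in control lungs, with a summed level of 57.8 to 111 CPM in control, 27.8 to 121 in bleomycin vehicle and 20.1 to 79.1 in nintedanib mice. All 6 B cell genes were lower, with sums of 203 to 363, 59.2 to 319 and 26.1 to 271 CPM. Of 8 alveolar macrophage genes 4 were higher and 3 lower, with sums of 504 to 764, 420 to 3299 and 403 to 3422 CPM, and of 7 conventional dendritic cell genes 4 were higher and 2 lower, with sums of 112 to 140, 98.6 to 256 and 79.6 to 164 CPM. None of these markers was at 0 in any library. Of 6 neutrophil genes 3 were lower, with sums of 69.0 to 186, 25.9 to 124 and 59.5 to 708 CPM. Of 6 monocyte genes 3 were lower, with sums of 192 to 632, 126 to 352 and 102 to 205 CPM. Of 5 tested plasmacytoid dendritic cell genes 4 were lower. Sums over all 6 listed genes of that type were 205 to 269, 142 to 270 and 130 to 255 CPM. The part of these cells in the changes of the OAS genes and the GBP genes was not tested.

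Control mice differed in these genes along with their fat transcripts. The 2 control mice with Adipoq under 1 CPM, mice 2 and 5, had a higher mean than the other 8 for 37 of 39 members and for 55.7% of all tested genes. For 8 members, against 3.64% of all tested genes, both of these mice were above all 8 others. Isg15, for example, was at 8.13 and 9.47 CPM in these 2 and at 2.79 to 7.21 CPM in the other 8. Without the 13 libraries that reached 1 CPM of Adipoq, which leaves these 2 control mice and 12 nintedanib mice, 3 members were called higher (Oas1a, Oas2 and Oas3) and 7 lower, a set that gained Bst2, Ifitm3 and Igtp and lost Cmpk2 and Ifi35; over all tested genes the calls fell from 4381 higher and 4204 lower to 2050 and 1604. Which control mice were used and how few were left cannot be told apart in that count. Without these 2 control mice instead, 14 members were higher and 6 lower (3799 and 4539 of all tested genes). With the 2 control mice alone the log2 fold change was 1.81 for Oas3 (edgeR's adjusted p = 0.019), 1.26 for Oas1a (0.0028), 0.37 for Isg15 (0.51), 0.50 for Ifit1 (0.24) and 0.44 for Irf7 (0.25), while that for Gbp7 was -1.07 (4e-05). With all libraries and a term for Adipoq of at least 1 CPM, 14 members were called higher and 4 lower (3364 and 2704 of all tested genes), with 0.80 for Isg15 (edgeR's adjusted p = 0.01) and -0.72 for Gbp7 (2.2e-05). All 5 tested adipocyte genes were lower in bleomycin vehicle than in control lungs. Sums over all 6 listed adipocyte genes were 8.87 to 1596 CPM in control, 1.88 to 13.5 in bleomycin vehicle and 2.41 to 924 in nintedanib mice. Adipoq had a count in only 4 of the 16 bleomycin vehicle libraries. The part of fat tissue in the members' differences was not tested beyond these alternatives.

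In bleomycin mice no member was called between nintedanib and vehicle by edgeR's quasi-likelihood test or by DESeq2, whereas 7.31% of all tested genes were called (3.21% higher and 4.10% lower). The count over all genes was 1084, and it was 696 without nintedanib mouse 1, at most 1559 with any other library left out, and 254 higher and 386 lower with only the 2 groups fitted. At an unadjusted p under 0.05 there were 5 of 39 members by either tool, and 3610 of 14836 genes by edgeR. These were Dhx58 at -0.23 ± 0.08, Xaf1 at -0.16 ± 0.06, Bst2 at -0.17 ± 0.07, Gbp5 at -0.30 ± 0.14 and Parp14 at -0.07 ± 0.04, with edgeR's adjusted p from 0.079 to 0.19. All 5 had lower means under nintedanib, as did 30 of the 39 members and 7527 of the 14836 tested genes, and the median log2 fold change was -0.07 over the members and -0.00215 over all tested genes. The ranges of the 2 groups overlapped for every member and for every tested gene (0.00% without overlap). Leaving out 1 nintedanib mouse changed the count of members called in 3 cases: Dhx58 and Bst2 were called lower without mouse 8, Dhx58 and Xaf1 without mouse 12, and Xaf1 without mouse 17. Over all tested genes these fits called 630 higher and 824 lower, 532 and 806, and 469 and 592, in place of 476 and 608.

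For the members with the largest changes in bleomycin vehicle lungs, the intervals of the difference under nintedanib all included 0. The log2 difference of nintedanib minus vehicle was -0.08 for Isg15 (95% interval -0.41 to 0.25), 0.11 for Ifit1 (-0.14 to 0.35), -0.01 for Irf7 (-0.24 to 0.22) and -0.16 for Oas1a (-0.38 to 0.07). For Oas3 it was -0.20 (-0.62 to 0.21), and the medians were 13.8 CPM under vehicle and 9.30 CPM under nintedanib, while the highest mouse reached 26.6 CPM against 20.5. Among the members with falls it was -0.03 for Gbp2 (-0.19 to 0.12) and -0.10 for Gbp7 (-0.27 to 0.08). For 37 of 39 members the interval, which is not adjusted for the number of genes, excluded a 1.5-fold change in either direction; Zbp1 and Oas3 were the exceptions. In this comparison 4 of 6 neutrophil markers were higher under nintedanib (sums of 25.9 to 124 CPM under vehicle and 59.5 to 708 under nintedanib) and 4 of 7 conventional dendritic cell markers were lower, and none of these was at 0 in any library. Of 6 monocyte markers 2 were lower, of 8 alveolar macrophage markers 1 was lower, and of 5 plasmacytoid dendritic cell markers 1 was higher and 2 were lower, with Klk1 at 0 in some nintedanib libraries. Of 5 adipocyte genes 4 were higher under nintedanib, and the part of any of these cells in the members' differences was not tested. No member was called without the libraries that reached 1 CPM of Adipoq either.

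Nintedanib-treated bleomycin lungs were also set against control lungs, with the same 10 control mice as above, so the 2 comparisons are not independent. Of 39 members 13 were higher and 8 lower, beside 53.2% of all tested genes called (28.1% higher, 25.1% lower), and the members' share of 53.8% was again close to the background. All 6 OAS and PKR members were higher, with 1.70 ± 0.27 for Oas3, 1.13 ± 0.14 for Oas1a and 0.99 ± 0.19 for Oas2. The call of Oasl1 (edgeR's adjusted p = 0.046) was lost in 22 of 43 fits that each left out 1 library, and with other scalings. The values were 0.83 ± 0.20 for Isg15, 0.83 ± 0.15 for Ifit1 and 0.52 ± 0.14 for Irf7. Of the GBP and IRG members 0 were higher and 4 lower, with -0.74 ± 0.10 for Gbp7, -0.60 ± 0.10 for Gbp3, -0.55 ± 0.16 for Gbp5 and -0.42 ± 0.09 for Gbp2. Irf1 and Oas1a were the members whose ranges did not overlap between nintedanib and control mice, as was the case for 7.37% of all tested genes. Without the libraries that reached 1 CPM of Adipoq, 2 members were higher (Oas1a and Oas3) and 10 lower in this comparison, and over all tested genes 1800 were higher and 1497 lower in place of 4171 and 3717. Of the cell markers, 7 of 11 T and NK cell, 6 of 6 B cell and 4 of 6 monocyte genes were lower and 0 higher in nintedanib than in control lungs, and of the 8 lung genes 4 were higher and 4 lower. Their part in the members' changes was not tested.

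Mice of 1 group differed widely in these genes. Under nintedanib Isg15 was 23.4 CPM in mouse 13, 19.5 in mouse 8, 16.7 in mouse 12 and 15.2 in mouse 4, and 10.8 CPM or less in the other 13 mice. Mouse 8 was the highest of its group for 13 of the 39 members, 6 of them GBP or IRG genes, and for 8.84% of all tested genes. Among bleomycin vehicle mice, mouse 4 was highest for 16 members (15.0% of all tested genes), 6 of them GBP or IRG genes, and Iigp1 reached 154 CPM there against a group median of 48.9. Cxcl9, a chemokine induced by interferon gamma, was at 29.3 CPM in the same mouse, and the next bleomycin vehicle mice were at 9.54 and 9.33. Among control mice, mouse 2 was highest for 18 members, all 7 GBP and IRG genes included (15.6% of all tested genes).

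**Figure D4:**
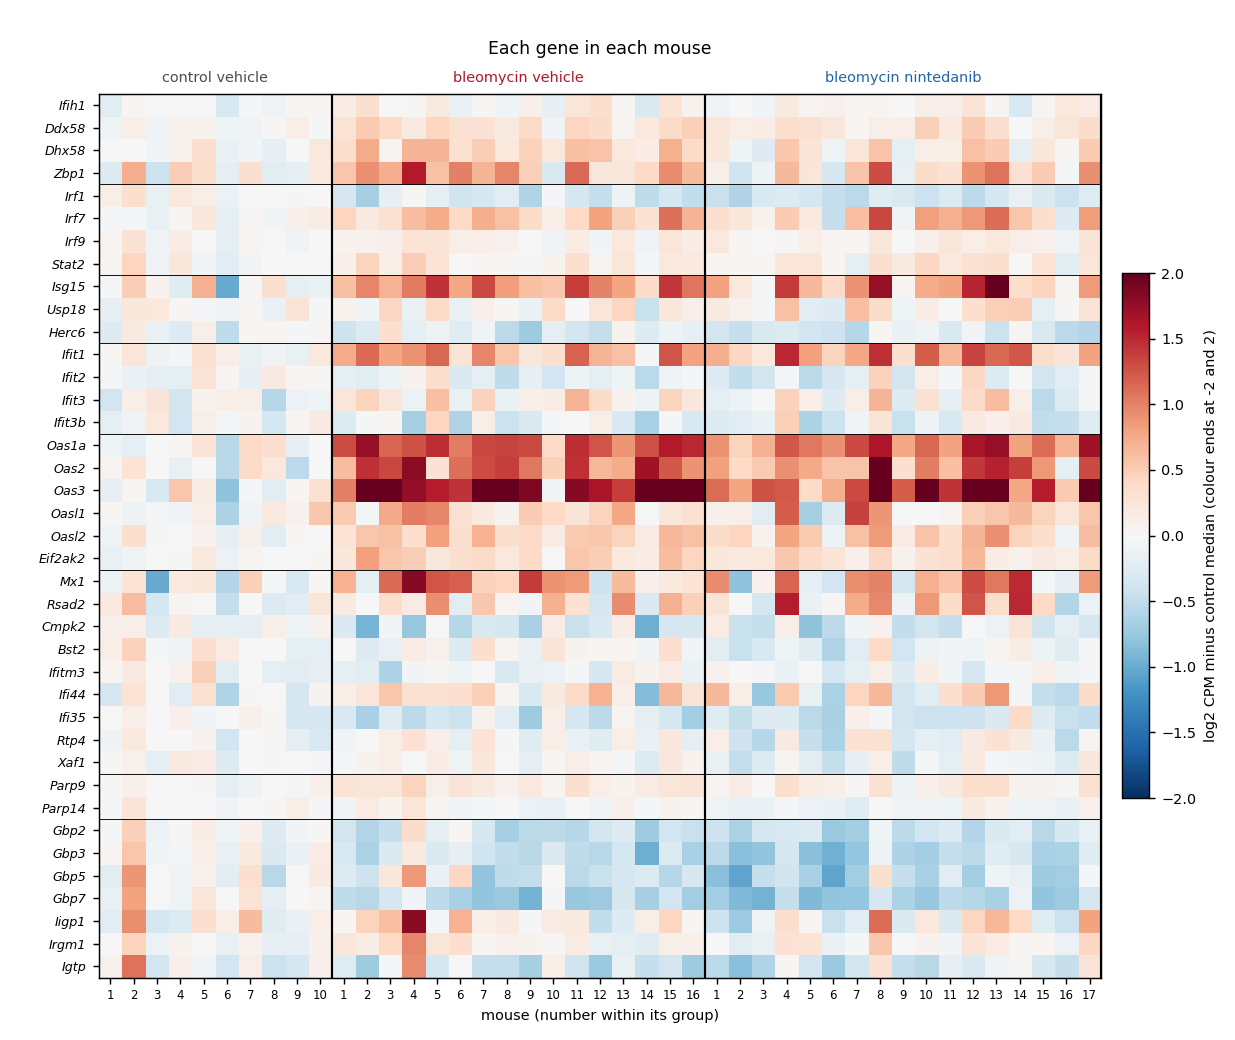
Log2 CPM of each member (rows, by role) in each mouse (columns, numbered within the group) minus the median of the control mice; red is higher and blue lower, and colours end at -2 and 2. The red block of OAS rows spans most bleomycin mice, and the GBP rows are blue in most of them. Control mouse 2, bleomycin vehicle mouse 4 and nintedanib mouse 8 are red in the rows of Gbp5, Iigp1, Irgm1 and Igtp. Nintedanib mouse 8 is not red in those of Gbp2, Gbp3 and Gbp7.

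The spread between mice of a member, measured as the mean absolute deviation from the group median of log2 CPM, was compared between groups by permutation (two-sided, 100000 resamples) with adjustment over all tested genes. No member and no other gene was called in either comparison (0.00% of tested genes). The resamples were too few for a single gene to pass that adjustment on its own. The members were not held back by this limit. Their smallest adjusted permutation p was 0.302 in bleomycin vehicle against control and 0.987 in nintedanib against vehicle. In simulated data of 3000 genes, 0% of 2-fold differences in spread were recovered in either comparison. The counts of 0 therefore do not show that spreads were alike. In bleomycin vehicle against control the spread was larger for 31 of 39 members and for 80.0% of all tested genes, and 2 members were under an unadjusted p of 0.05, beside 14.4% of all tested genes. In nintedanib against vehicle it was larger for 23 of 39 members and for 32.8% of all tested genes, and 3 members (Irf7, Ifi44 and Rtp4) were under an unadjusted p of 0.05, beside 4.06% of all tested genes.

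Relations between mice within a group were computed for 5 gene pairs in each of 3 groups, and p-values were adjusted over these 15 relations. Irf7 and Isg15 varied together in bleomycin vehicle mice (Pearson r = 0.69, adjusted permutation p = 0.00813, Spearman rho = 0.75, adjusted permutation p = 0.00309) and in nintedanib mice (r = 0.81, adjusted permutation p = 0.00075, rho = 0.83, adjusted permutation p = 0.00045). Without the 2 mice farthest from the median of Irf7, r was 0.66 and 0.82. In the largest library series alone r was 0.64 and 0.83. In control mice the relation did not pass the threshold (r = 0.49, adjusted permutation p = 0.215, rho = 0.14, adjusted permutation p = 0.759, r = -0.51 without 2 mice).

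Ifit1 and Isg15 were related in the same way, with r = 0.87 (adjusted permutation p = 0.0006) and rho = 0.85 (adjusted permutation p = 0.000675) in bleomycin vehicle mice and r = 0.80 (adjusted permutation p = 0.00085) and rho = 0.77 (adjusted permutation p = 0.00161) in nintedanib mice. Without the farthest 2 mice r was 0.81 and 0.73, and in the largest series 0.80 and 0.88. In control mice r was 0.24 (adjusted permutation p = 0.521), with rho = 0.31 (adjusted permutation p = 0.447) and r = -0.50 without 2 mice.

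Gbp2 and Isg15 gave no relation that passed the threshold. Their r was 0.40 in control mice (adjusted permutation p = 0.277), 0.25 in bleomycin vehicle mice (adjusted permutation p = 0.375) and 0.31 in nintedanib mice (adjusted permutation p = 0.277). The Spearman rho was 0.31 (adjusted permutation p = 0.447), 0.33 (0.355) and 0.24 (0.447) in these groups. Without the 2 mice farthest from the median of Gbp2, r was 0.61, 0.47 and 0.33, and in the largest series it was 0.40, 0.18 and 0.45.

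Irf1 and Gbp2 were related in nintedanib mice (r = 0.75, adjusted permutation p = 0.00203, rho = 0.81, adjusted permutation p = 0.0015, and r = 0.65 without 2 mice). They were related in control mice too (r = 0.75, adjusted permutation p = 0.0224, rho = 0.73, adjusted permutation p = 0.0432), with r = 0.53 without 2 of the 10 mice. In bleomycin vehicle mice the relation did not pass (r = 0.46, adjusted permutation p = 0.118, rho = 0.46, adjusted permutation p = 0.135) and r was 0.12 without 2 mice. In the largest series r was 0.82, 0.76 and 0.41 for nintedanib, control and bleomycin vehicle mice. Cxcl9 and Gbp2 were related in nintedanib mice (r = 0.66, adjusted permutation p = 0.00845, rho = 0.66, adjusted permutation p = 0.0109, r = 0.51 without 2 mice and 0.58 in the largest series). In bleomycin vehicle mice r was 0.54 (adjusted permutation p = 0.062) but rho was 0.07 (adjusted permutation p = 0.791) and r was -0.31 without 2 mice, so that it rested on those mice, and in control mice r was 0.42 (adjusted permutation p = 0.277) and rho 0.38 (adjusted permutation p = 0.42). No difference in r between groups was tested.

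**Figure D5:**
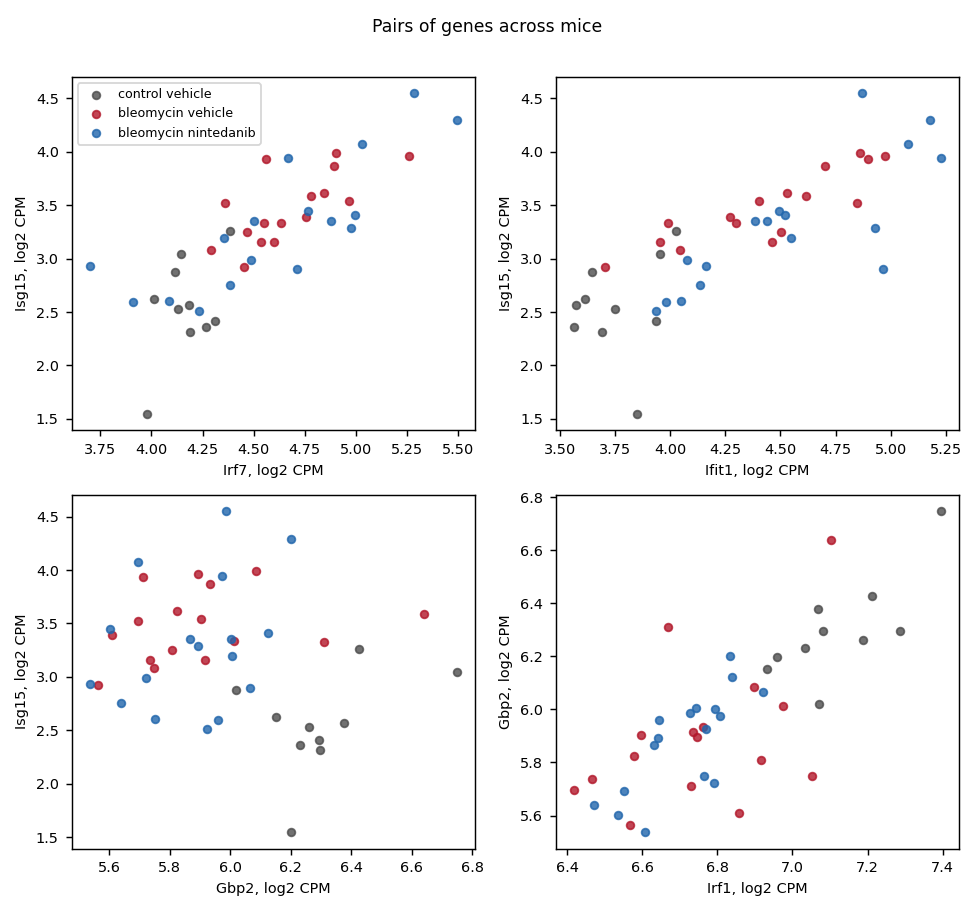
Log2 CPM of gene pairs in each mouse, coloured by group (grey control vehicle, red bleomycin vehicle, blue bleomycin nintedanib). Isg15 rises with Irf7 and with Ifit1 across bleomycin mice (r from 0.69 to 0.87 within groups). With Gbp2 its r is 0.25 in bleomycin vehicle and 0.31 in nintedanib mice (0.47 and 0.33 without 2 mice). In control mice its r is 0.40 with Gbp2 (0.61 without 2 mice), 0.49 with Irf7 (-0.51) and 0.24 with Ifit1 (-0.50). Differences between pairs were not tested. Gbp2 rises with Irf1 in nintedanib and control mice (r = 0.75 in both).

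The genes upstream of the members were measured with them. Of 21 interferon ligand genes none passed the low-count filter, and their summed level stayed at or below 0.891 CPM in every library. Interferon gamma (Ifng) had 28 counts over 10 control, 31 over 16 bleomycin vehicle and 17 over 17 nintedanib libraries, and interferon beta (Ifnb1) had 0, 2 and 5. Ligand transcripts were too few to be tested. Of 6 interferon receptor genes 4 were higher and 0 lower in bleomycin vehicle than in control lungs (66.7%, beside 57.9% of all tested genes called). The values were 0.39 ± 0.06 for Ifngr2, 0.18 ± 0.05 for Il10rb, 0.16 ± 0.04 for Ifnar1 and 0.16 ± 0.07 for Ifnlr1.

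Of 11 JAK-STAT genes 5 were higher and 1 lower in bleomycin vehicle against control (54.5%, beside 57.9% of all tested genes called). Socs3, a feedback inhibitor of cytokine signalling, rose by 1.22 ± 0.18, and Stat3, Ptpn2 and Jak2 by 0.44 ± 0.06, 0.32 ± 0.07 and 0.30 ± 0.05. Between nintedanib and vehicle 1 of the 11 was called (9.09%, beside 7.31% of all tested genes). It was Jak2, which fell by 0.13 ± 0.04 on the log2 scale (edgeR's adjusted p = 0.035).

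Of 14 genes that sense nucleic acids or relay that signal to interferon genes, 8 were higher and 1 lower in bleomycin vehicle against control. That share of 64.3% stood beside 57.9% of all tested genes called. Tmem173, which encodes the DNA-pathway adaptor STING, rose by 1.09 ± 0.14 from a median of 24.8 to 52.3 CPM. The kinase Ikbke rose by 0.84 ± 0.12, the RNA receptor Tlr7 by 0.77 ± 0.16 and its adaptor Myd88 by 0.46 ± 0.08. Between nintedanib and vehicle 2 of the 14 were called (14.3%, beside 7.31% of all tested genes). These were Irf8 and Irf5, factors of myeloid cells, which fell by 0.35 ± 0.09 (edgeR's adjusted p = 0.018) and 0.30 ± 0.10 (0.048).

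A further 53 interferon-stimulated genes outside the list were looked up, and 50 were tested. In bleomycin vehicle against control 15 were higher and 14 lower (58.0%, beside 57.9% of all tested genes called), with a median log2 fold change of 0.04. The smallest p-values were those of Lgals3bp, a secreted glycoprotein (0.998 ± 0.09), the high-affinity IgG receptor Fcgr1 (1.95 ± 0.19), Oas1g (2.19 ± 0.24, uncertain as above) and Gbp9, which fell by 0.74 ± 0.08. Between nintedanib and vehicle 1 was higher and 4 were lower (10%, beside 7.31% of all tested genes called). Isg20, an exonuclease, rose by 0.17 ± 0.05, and the immunoproteasome subunits Psmb9 and Psmb8 fell by 0.28 ± 0.08 and 0.26 ± 0.08, Ciita, the master regulator of MHC class II genes, by 0.38 ± 0.11 and Slfn2 by 0.31 ± 0.10. EdgeR's adjusted p of these 5 ran from 0.026 to 0.04. The chemokines Cxcl9 and Cxcl10 were higher in bleomycin vehicle than in control lungs by 2.62 ± 0.69 and 1.54 ± 0.35, at medians of 1.55 and 4.49 CPM against 0.650 and 1.84 CPM. Without bleomycin vehicle mouse 4 these values were 1.86 ± 0.59 and 1.24 ± 0.30 (edgeR's adjusted p = 0.0069 and 0.00062). Ccl5 was not called at -0.30 ± 0.28, or without that mouse at -0.54 ± 0.25.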

How the data were processed

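Gene counts were used as the authors deposited them, as whole numbers in a single table whose columns are the 43 libraries. The labels' protocols describe directional libraries from polyA RNA, read from 1 end over 75 bases. The tools STAR 2.7.0f and R 3.6.0 and the build GRCm38 are named, without their roles, per the submitters' processing notes. How reads were aligned and counted, and with which strand setting, annotation or filter, is not given in the sources used here; reads of overlapping or antisense genes may therefore be mixed. Symbols and positions came from GENCODE M21 (GRCm38), and all 21938 identifiers matched.

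Counts were tested with edgeR 4.0.16 (R 4.3.3) using TMM factors, filterByExpr by group (minimum count 10, minimum total 15) and the two-sided quasi-likelihood F test with 1 coefficient per group over all 43 libraries. The 14836 genes kept held 99.96% of counts. Benjamini-Hochberg adjustment ran over these genes, with a threshold of 0.05 on the adjusted p. Standard errors are the size of the log2 fold change divided by the square root of F. Levels are CPM with TMM factors, and log2 CPM has a prior count of 2. DESeq2 1.42.0 was an alternative. Permutation tests used SciPy 1.17.1 and NumPy 2.4.6. The edgeR fit and the spread test were also run on simulated data. There edgeR recovered 55% to 59% of 1.25-fold changes and 71% to 85% of 1.5-fold changes. The spread test recovered 0% of 2-fold differences in both comparisons. Of 4-fold differences it recovered 3% in bleomycin vehicle against control and 82.5% in nintedanib against vehicle.

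The members, the other lists and the alternatives were chosen with earlier results of these data known. Among members called in bleomycin vehicle against control, the 8 that rose most and the 6 that fell most have their values in full, as have members called in nintedanib against vehicle and Isg15, Irf7, Ifit1 and Gbp2; of other lists up to 4 genes with the smallest p are named. Slfn2, as the last of 5 called genes, Ifng, Ifnb1, Cxcl9, Cxcl10 and the mice singled out were chosen after their values were seen. Listed genes Mb21d1 and Mnda were found through RefSeq synonyms as Cgas and Ifi211. Alternatives were other scalings, no low-count filter, DESeq2, only the groups compared, the library number series, libraries with Adipoq and each library left out in turn; the term for Adipoq, the fit without control mice under 1 CPM of Adipoq and the chemokine values without bleomycin vehicle mouse 4 were added after the data had been seen.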

Additional observations from a re-analysis of the deposited data

Results flagged for a closer look

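Of the 39 members tested for a mouse far from the others in the control group, 3 stood out, all at their highest mouse, which was control mouse 2 each time. Gbp7 was at 6.55 log2 CPM in that mouse and the next mouse was at 6.01, a gap of 53.4% of the group's range. Igtp was at 6.02 against 5.08, a gap of 62.5% of the range. Irgm1 was at 5.87 against 5.52, a gap of 55.6% of the range. About 1 in 20 such tests is passed by chance, and genes of 1 mouse are not independent of each other. The rule was not run on genes outside the list, so no share over all tested genes can be given. Control mouse 2 was the highest control for 15.6% of all tested genes, and its Adipoq was under 1 CPM. Without control mouse 2 the members called in bleomycin vehicle against control numbered 14 higher and 6 lower (3885 and 4643 of all tested genes). The falls of Gbp2, Gbp3 and Gbp7 were called without that mouse. The bleomycin groups, with 16 and 17 mice, were too large for this rule and were not tested.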

How the results depend on the processing

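Without the libraries that reached 1 CPM of Adipoq, the members called higher fell from 15 to 3 in bleomycin vehicle against control and from 13 to 2 in nintedanib against control. Over all tested genes those called higher fell from 4381 to 2050 and from 4171 to 1800. Only 2 control mice remained, so fewer samples were tested. Fold changes moved as well. In bleomycin vehicle against control that of Isg15 went from 0.91 to 0.37 and that of Gbp7 from -0.65 to -1.07. Which control mice were left and how few cannot be told apart, and the cause was not tested. Leaving out each of the 43 libraries in turn gave 13 to 17 members higher and 6 to 8 lower in bleomycin vehicle against control. It gave 10 to 13 higher and 7 to 11 lower in nintedanib against control, and 0 higher and 0 to 2 lower in nintedanib against vehicle. Over all tested genes these fits called 8342 to 9054, 7627 to 8346 and 696 to 1559, in the same order. In the last comparison Dhx58 and Bst2 were called lower without nintedanib mouse 8, Dhx58 and Xaf1 (2 members) without mouse 12 and Xaf1 (1 member) without mouse 17. These fits called 824, 806 and 592 of all tested genes lower, in place of 608, and the cause was not tested. The rise of Ifit3 lost its call without any 1 of control mice 1, 4, 8, 9 and 10, and that of Oasl1 without any 1 of control mice 2, 3, 4, 5, 6, 7 and 9 or vehicle mice 3 and 4. Against control under nintedanib, Oasl1 lost its call in 22 of the 43 and Rsad2 in 6. Library totals in place of TMM factors moved the median of all genes by under 0.1. They gave 13 members higher and 6 lower in bleomycin vehicle against control (3736 and 4882 of all tested genes, in place of 4381 and 4204). They gave 11 higher and 11 lower in nintedanib against control, and over all genes 3250 higher and 4844 lower in place of 4171 and 3717. In nintedanib against vehicle they gave 369 higher and 813 lower over all genes in place of 476 and 608. Of the members' fold changes under alternatives other than leaving out a library, 1109 kept their side of the threshold, 46 lost a call, 15 gained one and 0 reversed. A change of sign in a member that stayed uncalled was not counted as reversed. Without the libraries that reached 1 CPM of Adipoq, 8 members in bleomycin vehicle and 6 in nintedanib against control changed sign in that way. That setting also held 14 and 11 of the lost calls. No member was called for spread with the standard deviation as its measure or without the libraries that reached 1 CPM of Adipoq. The main spread test recovered 0% of 2-fold differences in simulated data, so these counts do not show that spreads were alike. No paired analysis was possible because the labels give no replicate numbers shared between groups. Reads of near-identical genes, whole-lung tissue and the unnamed control vehicle limit these values.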

Other observations

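Some interferon-stimulated genes outside the list that changed are given here; they were picked after their values were seen. Siglec1, a sialic-acid receptor of macrophages that is induced by type I interferon, rose from a median of 16.4 CPM in control to 108 CPM in bleomycin vehicle lungs (log2 fold change 2.68 ± 0.30, edgeR's adjusted p = 1.1e-09) and stood at 78.1 CPM under nintedanib. Cd274, which encodes PD-L1, rose by 0.77 ± 0.13 (edgeR's adjusted p = 2.8e-06), from 19.02 to 33.8 CPM. Gbp4, a guanylate-binding protein gene outside the list, fell by 0.98 ± 0.16 on the log2 scale (edgeR's adjusted p = 2.7e-06), from 65.3 to 31.7 CPM, and Slfn5 fell by 0.49 ± 0.07 (edgeR's adjusted p = 2.2e-07).

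Tgtp1 and Tgtp2 are GTPase genes with 3122 and 2864 windows of 75 bases, of which they share 2330 with each other. They had opposite values in bleomycin vehicle against control, 1.02 ± 0.27 and -0.89 ± 0.21. How reads were divided between them is not known, and both values are uncertain.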
